A study of Mus musculus with 6 samples.

Results

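The mRNAs of 10 receptor genes were examined in ribosome-associated RNA from D2 neurons of the mouse medial prefrontal cortex (mPFC). They encode adrenergic receptors (Adra1a, Adra1b, Adra1d, Adra2a, Adra2c and Adrb1), the cannabinoid receptor CB1 (Cnr1), the mu and kappa opioid receptors (Oprm1 and Oprk1) and the adenosine A1 receptor (Adora1). The genes were taken by gene name from a table of 115220 transcripts of 47729 genes, in which they account for 56 transcripts. The values are FPKM, fragments divided by transcript length and by the number of mapped fragments, so that levels can be set beside each other between genes. The gene total used here is the summed FPKM of all transcripts listed for a gene.

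Adult male C57BL/6 mice of the D2Cre/LSL-Flag-Cas9/RiboTag line were used, in which Cre from a bacterial artificial chromosome transgene switches on Cas9 and a hemagglutinin-tagged Rpl22 ribosomal protein in cells with D2 receptor promoter activity. The mPFC received AAV GFP in the Ctrl group (3 libraries) or AAV Gsk3sgRNA/GFP, whose guide targets Gsk3b, in the Gsk3sKO group (3 libraries). Both groups carried Cre, Cas9, the tagged ribosomes and a GFP virus, and tissue was taken 3 weeks after injection. No guide is named for the Ctrl virus, so effects of a guide or of Cas9 cutting cannot be told apart from those of GSK3β loss. The comparison asks whether loss of GSK3β in D2 neurons was accompanied by other levels of these receptor mRNAs on ribosomes. The sources do not state whether a library came from 1 mouse or a pool, so p-values measure the spread between these libraries, which may in part be technical.

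Receptors of these families are G protein-coupled and tune neuronal excitability and transmitter release. Alpha1 adrenergic receptors act through Gq and calcium, alpha2 receptors through Gi and lowered cAMP, and the beta1 receptor through Gs and raised cAMP, and noradrenaline acts through all of them in prefrontal circuits for attention and working memory. The CB1, mu opioid, kappa opioid and A1 receptors couple mainly to Gi, and on axon terminals they reduce transmitter release. Their ligands are the endocannabinoids, the endogenous opioid peptides (dynorphins for the kappa receptor) and adenosine.

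In the GENCODE M21 annotation of GRCm38, the plus strand carries Adra1a (ENSMUSG00000045875) at chr14:66635251-66733462, Adra2a (ENSMUSG00000033717) at chr19:54044151-54048982 and Adra2c (ENSMUSG00000045318) at chr5:35278319-35281763. The same strand carries Adrb1 (ENSMUSG00000035283) at chr19:56722199-56725150, Cnr1 (ENSMUSG00000044288) at chr4:33924593-33948831, Oprm1 (ENSMUSG00000000766) at chr10:6758506-7038198 and Oprk1 (ENSMUSG00000025905) at chr1:5588466-5606131. On the minus strand lie Adra1b (ENSMUSG00000050541) at chr11:43774606-43901210, Adra1d (ENSMUSG00000027335) at chr2:131545850-131562283 and Adora1 (ENSMUSG00000042429) at chr1:134199223-134235431. Adra2a, Adra2c and Adrb1 are single-exon genes, and the others have introns.

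Adora1, Cnr1, Adra1b, Oprm1 and Oprk1 had listed transcripts with 5′ ends in more than 1 start region, here a group of 5′ ends within 500 bases of each other. Upstream windows of the first 4 of these genes are shown because the FPKM were divided differently between the start regions in different libraries, as described further on. Each window holds the 250 bases before a RefSeq transcript start in GRCm38.p6, 5′ to 3′ on the strand of the gene, and those shown share no base with an exon of a listed transcript. Capitals mark the GC box GGGCGG or its reverse complement CCGCCC.
Adora1, chr1:134235458-134235707, minus strand: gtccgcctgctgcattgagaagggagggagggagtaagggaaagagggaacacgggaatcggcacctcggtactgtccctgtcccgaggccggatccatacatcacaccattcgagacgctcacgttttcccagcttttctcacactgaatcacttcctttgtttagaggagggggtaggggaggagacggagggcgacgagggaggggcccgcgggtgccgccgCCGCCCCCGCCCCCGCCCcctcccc
Cnr1, chr4:33924014-33924263, plus strand: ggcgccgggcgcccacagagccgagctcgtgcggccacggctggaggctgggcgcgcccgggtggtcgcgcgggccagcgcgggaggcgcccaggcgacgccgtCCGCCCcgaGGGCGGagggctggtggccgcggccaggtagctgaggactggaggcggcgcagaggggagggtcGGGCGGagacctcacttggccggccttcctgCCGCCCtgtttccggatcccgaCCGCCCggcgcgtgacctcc
Adra1b, chr11:43836490-43836739, minus strand: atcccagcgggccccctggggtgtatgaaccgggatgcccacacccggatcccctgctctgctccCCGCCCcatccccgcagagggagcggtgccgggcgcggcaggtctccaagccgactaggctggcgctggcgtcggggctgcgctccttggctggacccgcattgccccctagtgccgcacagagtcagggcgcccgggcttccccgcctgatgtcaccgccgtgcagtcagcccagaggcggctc
Adra1b, chr11:43901238-43901487, minus strand: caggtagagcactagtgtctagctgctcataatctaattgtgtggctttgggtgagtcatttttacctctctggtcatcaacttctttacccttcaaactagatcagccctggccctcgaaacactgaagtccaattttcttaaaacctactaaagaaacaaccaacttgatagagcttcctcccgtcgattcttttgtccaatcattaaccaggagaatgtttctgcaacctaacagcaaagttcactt
Oprm1, chr10:6788320-6788569, plus strand: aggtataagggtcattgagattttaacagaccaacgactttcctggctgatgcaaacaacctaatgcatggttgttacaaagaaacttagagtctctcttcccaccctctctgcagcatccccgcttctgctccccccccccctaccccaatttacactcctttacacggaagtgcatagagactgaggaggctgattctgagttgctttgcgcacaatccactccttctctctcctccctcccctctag

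The windows differed in base composition. The Cnr1 window was 79.2% GC with 5 GC boxes, the Adora1 window 64.4% GC with 3 adjoining GC boxes at its 3′ end, and the downstream Adra1b window 72.8% GC with 1 GC box. The upstream Adra1b window was 41.6% GC and the Oprm1 window 50.0% GC, and neither held a GC box. The median over all 32851 windows of 250 bases in the RefSeq table was 52.4% GC. In all, 7 of the 10 genes had 13 windows in that table, and Adra1a, Adra1d and Oprk1 were not among them. Searched on both strands, the GC box was in 5 of the 13 windows (32.7% of all windows). The cAMP response element core TGACG was in 2 of the 13 (17.8% of all) and the TATA box letters TATAAA in 1 of the 13 (12.4% of all). These matches describe letters in the windows and were not tied to any measured difference.

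Depth and the targeted gene were looked at first. The depth estimated from the spacing of low FPKM values was 45200000, 32000000 and 23500000 reads for Ctrl 1 to 3 and 41200000, 28800000 and 30000000 reads for Gsk3sKO 1 to 3. This corresponds to an estimated 78 reads for the receptor gene with fewest (Adra2c in Ctrl 3) and 6533 for the one with most (Cnr1 in Gsk3sKO 1). The Gsk3b total was 35.6, 53.8 and 56.5 FPKM in Ctrl libraries 1 to 3 and 36.9, 37.0 and 33.6 FPKM in Gsk3sKO libraries 1 to 3. The groups overlapped in Ctrl 1, and the log2 fold change of FPKM + 1 was −0.40 (SE 0.19, limma unadjusted p = 0.0648, adjusted p = 0.773). An edit can leave the mRNA in place, so this level does not measure the loss of the protein.

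Drd2, which encodes the D2 receptor itself, was above 0 in all 6 libraries but uneven among the controls, at 1.58, 6.02 and 14.1 FPKM in Ctrl and 8.32, 5.96 and 7.28 FPKM in Gsk3sKO. The 7 markers of D2 dopaminoceptive neurons summed to 140 to 402 FPKM in Ctrl and 204 to 372 FPKM in Gsk3sKO, most of it Penk, with none called. Their log2 fold changes lay between 0.22 (Rgs9) and 0.57 (Gpr6), with a median of 0.35 against −0.06 over all gene totals tested. Markers of excitatory and inhibitory neurons, classes that D2 neurons can themselves belong to, and of glial and endothelial cells were present as well. Which cells the neuronal markers came from was not tested. The summed FPKM of 6 excitatory neuron markers ranged from 1550 to 1801 in Ctrl and from 1354 to 1640 in Gsk3sKO, with 1 of 6 markers lower at an unadjusted limma p under 0.05, a call made for 6.56% of all gene totals tested and for 5.20% in the lower direction. For 6 inhibitory neuron markers the sums were 990 to 1318 and 935 to 1029, for 6 astrocyte markers 145 to 177 and 144 to 192, and for 6 endothelial markers 15.9 to 64.1 and 22.8 to 61.0, with none called. The sums of 6 oligodendrocyte markers were 118 to 183 and 128 to 165, with 3 of 6 lower (Mog, Mag and Cnp), and of 6 microglial markers 14.2 to 25.3 and 12.4 to 15.4, with 1 of the 5 tested lower (C1qa). No marker on these lists was at 0 in all libraries. The part of these differences in the receptor values was not tested, and in immunoprecipitated bulk RNA fewer cells of a type and less RNA per cell cannot be told apart.

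All 10 receptor genes were detected in all 6 libraries, at levels that spanned more than an order of magnitude. In Ctrl the mean total was 25.0 ± 5.79 FPKM (SD, n = 3) for Cnr1, 13.5 ± 1.16 for Adora1 and 12.6 ± 2.19 for Adrb1. It was 5.33 ± 2.49 FPKM for Adra1a, 3.93 ± 1.13 for Adra1d, 2.91 ± 1.42 for Adra1b, 2.81 ± 0.997 for Adra2a and 2.37 ± 0.835 for Oprm1. Adra2c, at 1.43 ± 0.441 FPKM, and Oprk1, at 1.01 ± 0.198 FPKM, were lowest. Among neighbours in this order, the Ctrl libraries separated only Cnr1 from Adora1 and Adrb1 from Adra1a, and all other neighbours overlapped. The Gsk3sKO libraries gave the same order by mean except that Oprm1 stood above Adra2a, and these 2 genes overlapped in both groups. They also separated Adora1 from Adrb1 and Adra1d from Adra1b. Set against the 12874 gene totals with a mean of at least 1 FPKM, Cnr1 lay at percentile 78.6 of mean level, Adora1 at 64.1 and Adrb1 at 59.2, whereas Adra2c lay at 8.1 and Oprk1 at 4.3.

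The CB1, A1 and beta1 receptor mRNAs together made up most of the receptor signal. Cnr1, Adora1 and Adrb1 held 72.6%, 72.3% and 71.4% of the summed FPKM of the 10 genes in Ctrl and 74.5%, 70.2% and 74.2% of it in Gsk3sKO. The 3 alpha1 genes together held between 14.8% and 18.3% over the 6 libraries, the 2 alpha2 genes between 4.24% and 8.69%, and the mu and kappa opioid genes between 3.94% and 6.14%. The summed total of all 10 genes was 62.4, 75.5 and 74.7 FPKM in Ctrl and 72.5, 69.5 and 65.9 FPKM in Gsk3sKO, so the groups overlapped.

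**Figure D1:**
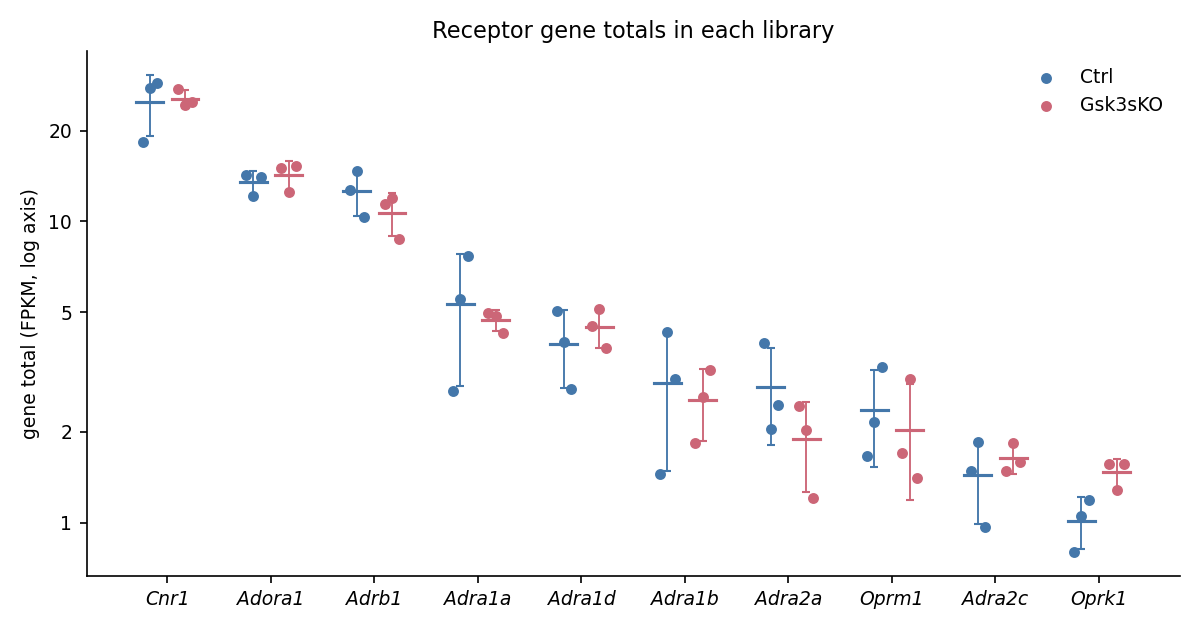
Gene totals (FPKM, log axis) of the 10 receptor genes in each library, ordered by the Ctrl mean; points are libraries, horizontal bars the mean of 3 libraries and vertical bars ± 1 SD. Cnr1, Adora1 and Adrb1 stand above the other 7 genes in both groups, and the 2 groups overlap for every gene except Oprk1, whose Ctrl libraries lie between 0.800 and 1.19 FPKM and Gsk3sKO libraries between 1.28 and 1.56 FPKM.

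None of the 10 receptor gene totals passed the test between Gsk3sKO and Ctrl. A linear model on log2(FPKM + 1) was fitted with limma over all 12874 gene totals, and 6.56% of them (844, of which 669 were lower and 175 higher in Gsk3sKO) had an unadjusted p under 0.05. After rescaling the libraries to the median ratio, the split was 503 lower and 306 higher. With Benjamini-Hochberg adjustment over all totals, 6 remained under 0.05, and none was a receptor gene of this set. The median log2 fold change of the 10 genes was −0.00 with 5 below 0, beside a median of −0.06 over all gene totals tested. In 1 of the 10 genes all 3 Gsk3sKO values were above all 3 Ctrl values, against 3.71% of all gene totals tested, and in 0 of the 10 all were below, against 8.30%. An exact permutation test of 3 against 3 libraries cannot give a p below 0.1.

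Among the alpha1 receptors, Adra1a was measured at 2.73, 5.55 and 7.70 FPKM in the Ctrl group and 4.99, 4.86 and 4.26 FPKM in Gsk3sKO. Its Ctrl libraries held both the lowest and the highest value, and the Gsk3sKO libraries lay between them. The log2 fold change was −0.07 with a 95% interval from −0.80 to 0.67 (SE 0.32, limma adjusted p = 0.978). Adra1b, the receptor of the same Gq-coupled subfamily on chromosome 11, was at 1.45, 4.28 and 2.99 FPKM in Ctrl and 1.84, 2.61 and 3.22 FPKM in Gsk3sKO. Here too Ctrl 1 was the lowest library and the groups overlapped, and the log2 fold change of −0.08 had an interval from −0.87 to 0.71 (limma adjusted p = 0.972). Adra1d, which differs from its relatives in a long extracellular N-terminus, was at 5.04, 3.97 and 2.78 FPKM in Ctrl and 4.48, 5.13 and 3.79 FPKM in Gsk3sKO. Ctrl 1, the lowest library for Adra1a and Adra1b, was the highest Ctrl library for Adra1d, whose log2 fold change was 0.17 (interval −0.42 to 0.76, limma adjusted p = 0.930).

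The alpha2 receptors act as autoreceptors on noradrenergic terminals and as postsynaptic receptors on cortical neurons. Adra2a, the target of guanfacine, was at 3.94, 2.04 and 2.46 FPKM in Ctrl and 2.44, 2.03 and 1.21 FPKM in Gsk3sKO. The Ctrl mean was 2.81 ± 0.997 FPKM (SD, n = 3) and the Gsk3sKO mean 1.89 ± 0.625 FPKM (SD, n = 3). Its log2 fold change was −0.39 (SE 0.31, limma adjusted p = 0.861, interval −1.11 to 0.32), and the groups overlapped. It was −0.19 without Ctrl 1, the highest library, and −0.21 without Gsk3sKO 3, the lowest. Adra2c was at 1.48, 1.85 and 0.969 FPKM in Ctrl and 1.48, 1.84 and 1.59 FPKM in Gsk3sKO. Except for the lower Ctrl 3 library, the values of Adra2c lay close together, and the log2 fold change was 0.13 (interval −0.54 to 0.80, limma adjusted p = 0.948).

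Adrb1 encodes the beta1 receptor, which raises cAMP on binding noradrenaline, and its mRNA was the most abundant of the 6 adrenergic genes in every library. It was at 12.7, 14.7 and 10.4 FPKM in Ctrl and 11.4, 11.95 and 8.72 FPKM in Gsk3sKO. In both groups library 3 was the lowest, and the groups overlapped. Its log2 fold change was −0.21 (SE 0.20, interval −0.68 to 0.25, limma adjusted p = 0.875), and it lay between −0.34 (without Ctrl 3) and −0.087 (without Gsk3sKO 3) when 1 library was left out.

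Cnr1 encodes the presynaptic CB1 receptor, and its total was 18.3, 27.7 and 28.9 FPKM in Ctrl and 27.6, 24.3 and 24.9 FPKM in Gsk3sKO. Ctrl 1 was the lowest library, and the 3 Gsk3sKO libraries lay between it and the other 2 Ctrl libraries. The log2 fold change was 0.06 with an interval from −0.39 to 0.50 (SE 0.19, limma adjusted p = 0.963). Cnr1 is also a marker of cholecystokinin interneurons, and of 5 such markers 3 were tested and none called. Their log2 fold changes were −0.25 for Cck, 0.06 for Cnr1 and 0.33 for Htr3a, and Slc17a8 and Sncg were below the level needed for the test. The summed FPKM of the 5, nearly all of it Cck, was 443 to 526 in Ctrl and 359 to 459 in Gsk3sKO.

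Adora1 had the smallest SE of the 10 gene totals. It was at 14.3, 12.2 and 14.1 FPKM in Ctrl and 15.1, 12.5 and 15.3 FPKM in Gsk3sKO, with library 2 lowest in both groups. The log2 fold change was 0.07, with the narrowest interval of the 10 genes, from −0.31 to 0.45 (SE 0.17, limma adjusted p = 0.949).

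The opioid receptor genes were read at low levels. Oprm1, which encodes the receptor for morphine and enkephalins, was at 1.66, 2.15 and 3.29 FPKM in Ctrl and 1.70, 2.99 and 1.40 FPKM in Gsk3sKO. Its values interleaved between the groups, with a log2 fold change of −0.16 (SE 0.32, interval −0.90 to 0.58, limma adjusted p = 0.942). Between 93 and 178 estimated reads per library lie behind these values. Oprk1, which encodes the dynorphin receptor, was at 0.800, 1.05 and 1.19 FPKM in Ctrl and 1.56, 1.28 and 1.56 FPKM in Gsk3sKO. In summed FPKM, all 3 Gsk3sKO libraries were above all 3 Ctrl libraries, the one such separation among the 10 genes (exact permutation test, 2-sided p = 0.1). The estimated Oprk1 reads, not scaled for depth, were 169, 142 and 130 in Ctrl and 289, 122 and 219 in Gsk3sKO. Gsk3sKO 2 thus had the fewest reads of all libraries, although its FPKM lay above those of Ctrl. The log2 fold change of 0.30 (SE 0.29, interval −0.36 to 0.96) did not pass the moderated test (limma unadjusted p = 0.334, adjusted p = 0.877). In a linear model without moderation of the variance, the unadjusted p was 0.0425 and the adjusted p 0.865.

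**Figure D2:**
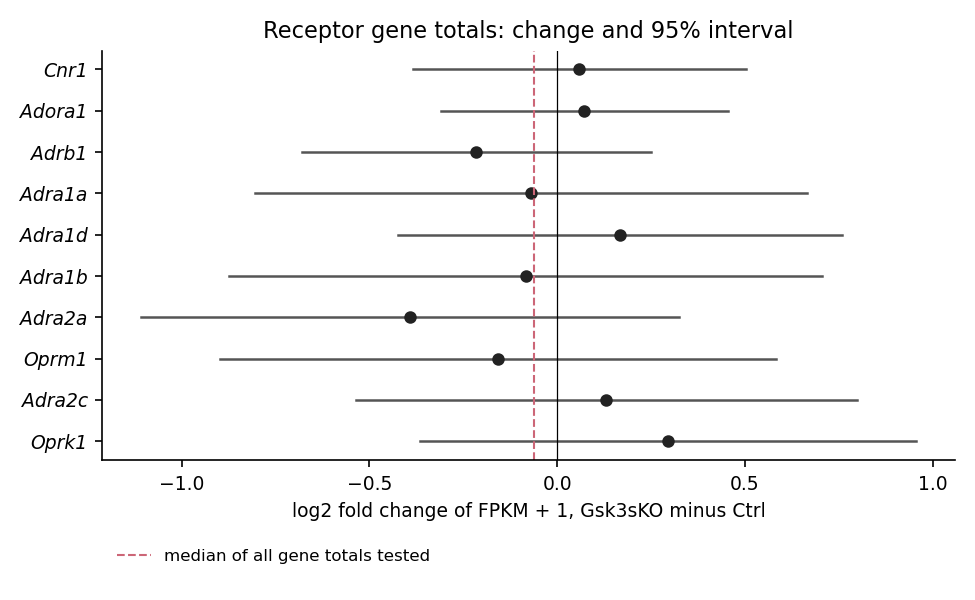
Log2 fold change of FPKM + 1 (Gsk3sKO minus Ctrl) of the 10 receptor gene totals with its 95% interval; the dashed line is the median of all gene totals tested, −0.06. Every interval includes 0, from the narrowest (Adora1, −0.31 to 0.45) to the widest, that of Adra1b (−0.87 to 0.71).

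Of the 56 listed transcripts of the 10 genes, 32 were above 0 in at least 1 library and 24 were listed at 0 in all libraries. Oprm1 had 31 listed transcripts, of which 11 were above 0, and Adra1d, Adra2a, Adra2c and Adrb1 had 1 listed transcript each. With a mean of at least 1 FPKM, 14 transcripts were tested, and 0 of 14 passed an unadjusted p under 0.05, against 5.56% of the 21584 transcripts tested. With adjustment, 0 transcripts of any gene passed. The values of 2 of the 14 did not overlap between the groups, both of Adora1, against 11.2% of all transcripts tested. The median log2 fold change was 0.07 over the 14 and −0.06 over all transcripts.

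The Adora1 total was divided differently between its transcripts from library to library. Adora1-202 (ENSMUST00000086465), the most abundant by mean, was at 0.0527, 9.42 and 5.08 FPKM in Ctrl and 13.7, 11.0 and 9.77 FPKM in Gsk3sKO. Adora1-203 (ENSMUST00000169927), named after its values were seen, was at 12.01, 0.0016 and 7.85 FPKM in Ctrl and listed at 0 in all 3 Gsk3sKO libraries. Adora1-203 thus held 84.1% of the Adora1 total in Ctrl 1, 55.8% in Ctrl 3 and almost none in Ctrl 2. The log2 fold change was 1.61 for Adora1-202 (SE 0.83, limma unadjusted p = 0.0976, adjusted p = 0.850). For Adora1-203 the limma unadjusted p was 0.0574 and the adjusted p 0.842, and no fold is given against a group listed at 0. Single libraries decided the size of both values. Without Ctrl 1, the log2 fold change of Adora1-202 was 0.64 (limma unadjusted p = 0.106) and the unadjusted p of Adora1-203 was 0.165. Without Ctrl 2, the log2 fold change of Adora1-202 was 2.29 (limma unadjusted p = 0.0342, adjusted p = 0.949), and for Adora1-203 the unadjusted p was 0.000491 and the adjusted p 0.475. Leaving out any of the other 4 libraries gave unadjusted p from 0.114 to 0.210 for Adora1-202 and from 0.117 to 0.162 for Adora1-203.

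On the minus strand of chromosome 1, Adora1-203 starts at 134234578, downstream of the start region at 134235364 to 134235431 that the other 3 listed transcripts share. That region lies next to the window of 64.4% GC shown above. A second Adora1 window, at 134234857 to 134235106 between the 2 starts, was 65.2% GC without a GC box. It was not shown because it lies in listed exons. The upstream start region held 15.9%, 100% and 44.2% of the Adora1 FPKM in Ctrl 1 to 3 and 100% in each Gsk3sKO library. Adora1-202 has 34 bases and Adora1-203 has 2 bases that are in no other listed transcript, and each has 1 intron of its own. The intron of Adora1-202 lies in its 5′ untranslated part and that of Adora1-203 in its 3′ untranslated part. Both, and Adora1-201, share the same coding sequence of 978 bases, so the division concerns exons outside the coding sequence. Adora1-202 is 4968 bases long and Adora1-203 is 4581, so more bases than these distinguish the 2 from each other. The division of reads between such transcripts is an estimate by the assembler, whose part in the difference was not tested.

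**Figure D3:**
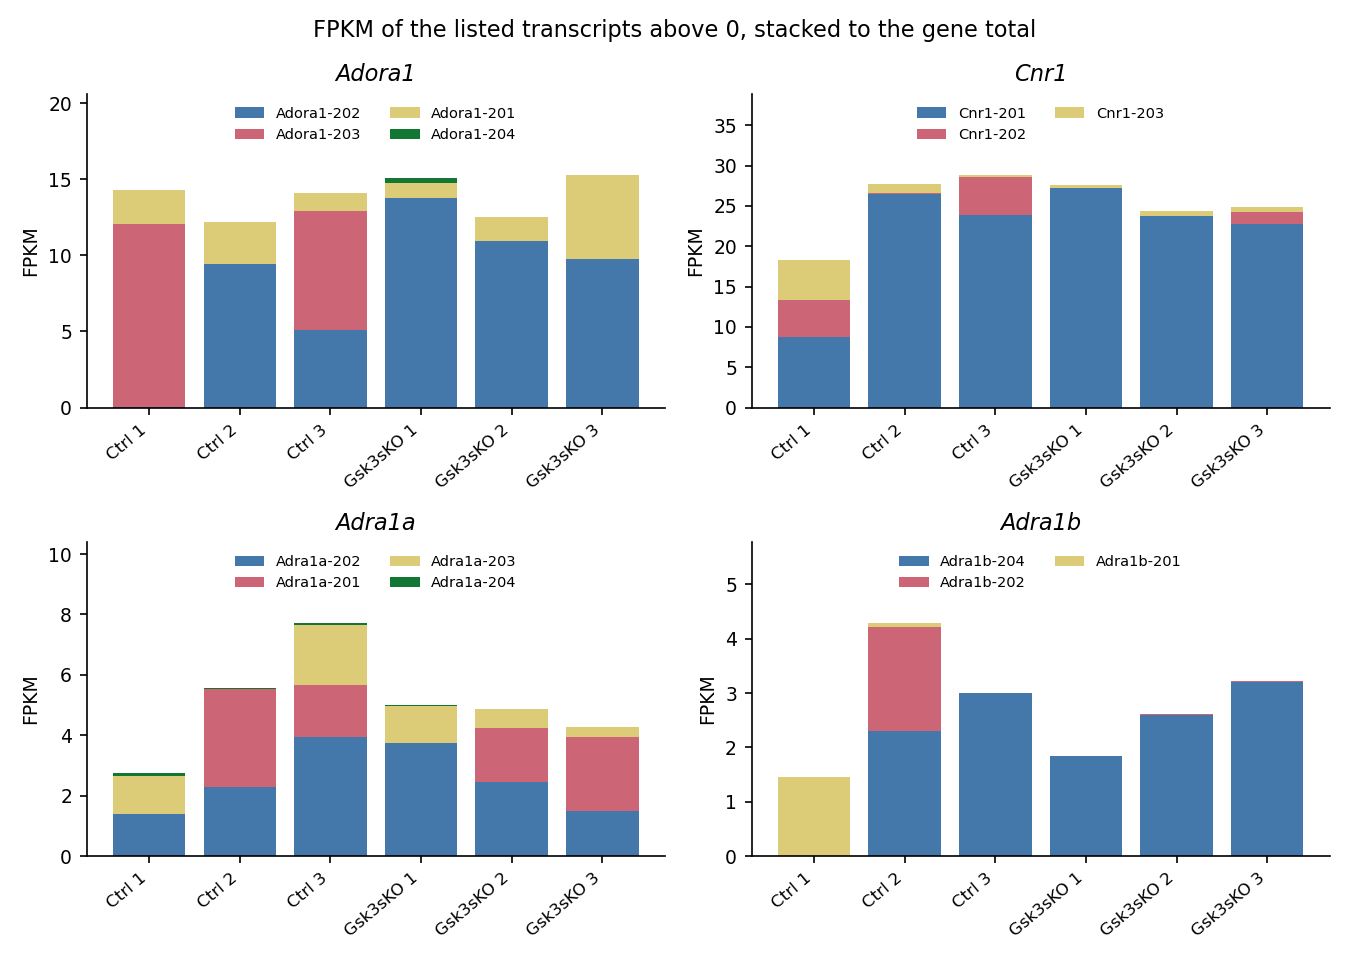
FPKM of the listed transcripts above 0 of Adora1, Cnr1, Adra1a and Adra1b in each library, stacked to the gene total. The Adora1 bars have similar heights, but Adora1-203 is visible only in Ctrl 1 and Ctrl 3, and Adra1b-201 makes up the whole Ctrl 1 bar of Adra1b.

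Cnr1 was carried mainly by Cnr1-201 (ENSMUST00000057188), except in Ctrl 1, where it held 47.8% of the total. Cnr1-203 (ENSMUST00000133462), with no annotated coding sequence, was at 4.95 FPKM in Ctrl 1 and at most 1.04 FPKM elsewhere (limma adjusted p = 0.890). It is 757 bases long against 5807 for Cnr1-201, so the same reads give a higher FPKM on it. Cnr1-201 was at 8.75, 26.5 and 23.9 FPKM in Ctrl and 27.2, 23.7 and 22.8 FPKM in Gsk3sKO, with Ctrl 1 far below the rest. Its log2 fold change was 0.44 (SE 0.41, limma adjusted p = 0.892). Cnr1-202 (ENSMUST00000084736), whose 5′ end lies downstream at 33926202 on chromosome 4 and which encodes the same 1419-base coding sequence, was at 4.60, 0.122 and 4.66 FPKM in Ctrl and 0.0820, 0.0503 and 1.45 FPKM in Gsk3sKO. The start region that follows the GC-rich Cnr1 window, shared by Cnr1-201 and Cnr1-203, held 74.9%, 99.6% and 83.8% of the Cnr1 FPKM in Ctrl. In Gsk3sKO it held 99.7%, 99.8% and 94.2%. As for Adora1, Ctrl 1 and Ctrl 3 held the larger share from the downstream start and Ctrl 2 resembled the Gsk3sKO libraries. The change of Cnr1-202 did not pass the test with all libraries (limma unadjusted p = 0.167, adjusted p = 0.879), and without Ctrl 2 its unadjusted p was 0.0164 and its adjusted p 0.949. Leaving out any other library gave unadjusted p from 0.117 to 0.380.

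Adra1b was read from its downstream start region, at 43836332 on chromosome 11, in all libraries but 1. Adra1b-204 (ENSMUST00000167574) was at 0, 2.31 and 2.99 FPKM in Ctrl and 1.84, 2.60 and 3.20 FPKM in Gsk3sKO. In Ctrl 1 the whole total came instead from Adra1b-201 (ENSMUST00000067258), which starts at 43901210 beside the window of 41.6% GC and was at 0.0566 FPKM or listed at 0 in every other library. The log2 fold change of Adra1b-204 was 0.57 (SE 0.60, limma adjusted p = 0.899). In Ctrl 2 it held 53.9% of the total, beside Adra1b-202 (ENSMUST00000124306), which has no annotated coding sequence. Adra1b-202 was at 1.92 FPKM there and at most 0.0185 FPKM elsewhere. Both have the same ends, 3047 bases and 2 exons, with no base or intron of their own. Their division in Ctrl 2 is therefore an estimate by the assembler, and the Adra1b-204 values depend on it. Adra1b-204 and Adra1b-201 have the same coding sequence of 1545 bases.

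Adra1a transcripts all start within 1 region on chromosome 14. Adra1a-202 (ENSMUST00000159068) was at 1.39, 2.28 and 3.94 FPKM in Ctrl and 3.76, 2.46 and 1.49 FPKM in Gsk3sKO, with a log2 fold change of 0.03 (limma adjusted p = 0.996). It made up between 35.0% and 75.4% of the Adra1a total, and the rest was mainly Adra1a-201 and Adra1a-203.

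Oprm1 had the most scattered division. Oprm1-215 (ENSMUST00000105607), the most abundant by mean, was at 1.66, 0.0306 and 0.921 FPKM in Ctrl and 0.752, 1.86 and 1.14 FPKM in Gsk3sKO (log2 fold change 0.34, SE 0.52, limma adjusted p = 0.932). The upstream start region of Oprm1, from 6758506 to 6758593 on chromosome 10, held 100%, 67.0% and 28.0% of its FPKM in Ctrl and 44.3%, 98.1% and 100% in Gsk3sKO. The remainder came from the downstream region at 6788601 to 6789099, next to the Oprm1 window shown above, and both groups ranged widely. Oprk1 was read mostly as Oprk1-204 (ENSMUST00000160777), at 0.800, 0.800 and 1.18 FPKM in Ctrl and 1.41, 0.0001 and 1.56 FPKM in Gsk3sKO, which was too low to be tested. In Gsk3sKO 2 the Oprk1 total came instead from Oprk1-202, a retained-intron transcript at 1.22 FPKM that was listed at 0 elsewhere. The separation of the groups in the Oprk1 total thus rested, in that library, on a transcript with no annotated coding sequence. Oprk1-202 is 3327 bases long and Oprk1-204 is 4675, so the same reads give a higher FPKM on Oprk1-202. Whether the separation would hold with those reads on Oprk1-204 was not tested.

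Most other receptors of the same families were at low levels. Of 8 such genes, 3 had a mean of at least 1 FPKM and none passed the test. Oprd1, the delta opioid receptor, was at 6.07, 6.70 and 4.60 FPKM in Ctrl and 6.37, 4.48 and 5.67 FPKM in Gsk3sKO, above Oprm1 and Oprk1 in every library. Oprl1, the nociceptin receptor, was at 4.55, 10.2 and 15.1 FPKM in Ctrl and 4.12, 6.69 and 11.2 FPKM in Gsk3sKO. Adora2a, the Gs-coupled adenosine receptor and a marker of striatal D2 neurons, was at 0, 1.29 and 5.27 FPKM in Ctrl and 2.72, 1.87 and 2.55 FPKM in Gsk3sKO. The limma adjusted p was 0.970 for Oprd1, 0.910 for Oprl1 and 0.913 for Adora2a. The highest value in any library was 0.0975 FPKM for Adra2b, 0.475 for Adrb3, 0.0198 for Cnr2, 0.610 for Adora2b and 0.0911 for Adora3.

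The ligand, transporter and enzyme genes of the 4 signalling systems were read beside the receptors. Of 43 genes on these lists, the other receptors included, 28 were tested, and 1 was lower and 0 higher at an unadjusted p under 0.05. This is 3.57% lower, against 5.20% of all gene totals tested, a share that is not above the background. The gene was Cnrip1, which encodes a protein that binds the C-terminal tail of CB1. It was at 42.8, 39.7 and 38.5 FPKM in Ctrl and 34.1, 26.2 and 25.4 FPKM in Gsk3sKO. All 3 Gsk3sKO libraries lay below all 3 Ctrl libraries, as for 8.30% of all gene totals tested. The log2 fold change of Cnrip1 was −0.50 (SE 0.16, limma unadjusted p = 0.0125, adjusted p = 0.671). Its unadjusted p ranged from 0.00464 to 0.0441 over the alternative settings, and it did not pass adjustment over all genes.

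The endocannabinoid list holds 7 enzymes that make or degrade the ligands of CB1 and the receptor-interacting proteins Cnrip1 and Sgip1, and all 9 genes were tested. Of these 8 had a log2 fold change below 0, against 58.9% of all gene totals tested, with a median of −0.29 against −0.06. Only Cnrip1, which is not an enzyme, was called. The 8 opioid peptide and processing genes had a median of −0.05 and none was called. Penk, the enkephalin precursor, was at 96.5, 112 and 295 FPKM in Ctrl and 172, 136 and 281 FPKM in Gsk3sKO, so the peptide mRNA stood far above its receptors in every library. Of 10 adenosine genes 6 were tested, with a median of 0.07 and none called. Adk, the kinase that removes adenosine, was at 14.8, 14.1 and 15.4 FPKM in Ctrl and 13.6, 10.2 and 8.73 FPKM in Gsk3sKO. These Gsk3sKO values were all below those of Ctrl, as for 8.30% of all gene totals tested (log2 fold change −0.44, limma unadjusted p = 0.0539, adjusted p = 0.764).

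Of 8 noradrenaline genes 2 had a mean of at least 1 FPKM, the monoamine oxidase genes Maoa and Maob, with a median log2 fold change of −0.11 and none called. Dbh and Slc6a2, which mark noradrenergic neurons, were at or near 0 in every library, and Slc18a2 was listed at 0 in all. Ddc, which makes dopamine from its precursor, was at 0.357, 1.01 and 1.14 FPKM in Ctrl and listed at 0 in all 3 Gsk3sKO libraries, below the level needed for the test. Penk, Adk and Ddc were named after their values were seen.

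**Figure D4:**
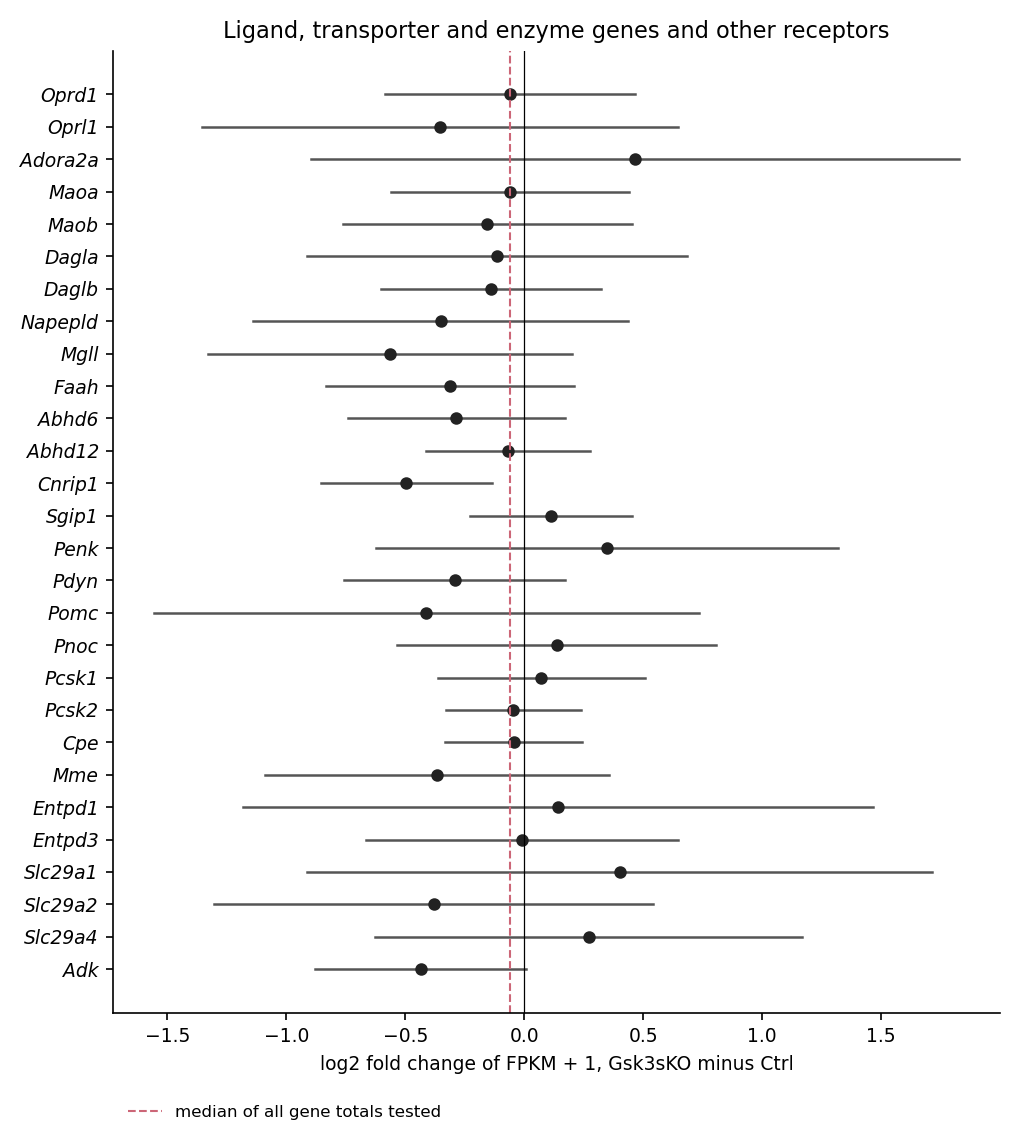
Log2 fold change of FPKM + 1 (Gsk3sKO minus Ctrl) with its 95% interval for the 28 tested genes that encode other receptors, ligand precursors, transporters and enzymes of the same signalling systems; the dashed line is the median of all gene totals tested, −0.06. Cnrip1, at −0.50, is the only gene whose interval does not include 0.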

How the data were processed

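The authors deposited FPKM values per transcript and library, made with HISAT2 2.1.0, SAMtools 1.9 and StringTie 1.3.4d on GRCm38 per the submitters' processing notes. Tool settings were not given in the sources read. Columns of the authors' comparison (fold change, p-value, q-value) were not used, and 0 columns of values lacked a sample. All 6 libraries were used, grouped by title. FPKM were summed by gene identifier; transcripts were matched to GENCODE M21 (114332 of 115220, with all 56 receptor transcripts). Gene totals and transcripts with a mean of at least 1 FPKM were compared on log2(FPKM + 1) with limma 3.58.1 in R 4.3.3 (lmFit, eBayes with a trend), which moderates the variance, and p-values were adjusted by Benjamini-Hochberg over all features tested. A pseudocount of 1 understates changes of low genes. Fits were tested on simulated data. Low FPKM values are spaced by what 1 read is worth, which gave a depth estimate; of these values between 15.7% and 31.0% per library lay within 0.02 reads of a whole number, so read numbers are approximate. Named were all 10 receptors, their most abundant transcript, transcripts and pathway genes called, and other receptors of the families. The receptors and lists were chosen with earlier results of these data known, and the start regions, windows and other transcripts after the values were seen. For 2 genes of the lists, values are not reported here, and the counts leave them out.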

Additional observations from a re-analysis of the deposited data

How the results depend on the processing

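The linear model without moderation called 1 receptor gene total (Oprk1) where limma called 0; no other alternative called any. Receptor transcripts called ranged from 0 to 3 when 1 library was left out, with 3 without Ctrl 2 (Adora1-203, Adora1-202 and Cnr1-202). Pathway genes called numbered 3 without a filter on low values (Cnrip1, Ddc and Adk) and from 1 to 3 when 1 library was left out: Mgll was added without Ctrl 1, Adora2a and Penk without Ctrl 3, and Adk without Gsk3sKO 1. The cause was not tested. Leaving out 1 library turned the direction of some log2 fold changes, none of them called. For gene totals these ranged from −0.41 to 0.20 for Adra1a, −0.39 to 0.17 for Adra1b, −0.012 to 0.33 for Adra1d, −0.014 to 0.25 for Adra2c, −0.14 to 0.17 for Cnr1 and −0.37 to 0.031 for Oprm1. The direction was the same for Adra2a (−0.54 to −0.19), Adrb1 (−0.34 to −0.087), Oprk1 (0.22 to 0.36), Adora1 (0.0045 to 0.16) and Adora1-202 (0.64 to 2.29). For transcripts they ranged from −0.22 to 0.30 for Adra1a-202, −0.053 to 0.95 for Adra1b-204, −0.038 to 0.71 for Cnr1-201 and −0.036 to 0.65 for Oprm1-215. Transcripts called over the whole table numbered 1200, against 1917 without a filter and 590 with a mean of at least 5 FPKM, where 4 receptor totals and 3 receptor transcripts were tested. Deviations of same-numbered libraries did not correlate over all gene totals tested (r = −0.027, −0.011 and −0.081). This gave no sign that the numbers pair the libraries, but it cannot exclude a pairing that affects only some genes. With the replicate block, 0 receptor totals, 0 receptor transcripts and 1 pathway gene were called, and 821 of all gene totals against 844. Depth limits the low genes most: Adra2c, Oprk1 and Oprm1 rest on few reads, and 3 libraries a group leave intervals wide enough to hold changes in either direction.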
